A study of Mus musculus with 21 samples.

Results

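The 40 genes described here run cell division. They are the D-type and E-type cyclins, the MCM helicase and other genes of DNA replication, cyclins A and B with their kinase, and the kinases, motors and centromere proteins of mitosis. They were chosen by symbol from a list of known functions, with no measured value in the rule but with earlier results of these data known. All 40 were found among the 54532 genes listed in each of 2 deposited expression tables. The tables hold RNA sequencing of primary mouse brain microglia in 21 libraries, 3 in each of 7 groups. In the aging table the groups are young wild type (WT), young Trem1-/-, aged WT and aged Trem1-/-. The 5XFAD table has adult WT, adult 5XFAD and adult mice that carry 5XFAD and are Trem1+/-. No group is shared between the tables, and young, aged and adult are given as words without months. Trem1 encodes a myeloid receptor that amplifies inflammatory signals, and the series asks what its deletion does to microglial expression in aging and in 5XFAD mice. 5XFAD mice carry mutated human transgenes of familial Alzheimer's disease driven in neurons by the Thy1 promoter and form amyloid plaques, so the transgenes act on microglia from outside. The labels state neither the sex nor the strain background, and whether each library is another animal is not said, so a p-value here measures no more than the spread between libraries, which may be technical.

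In G1, D-type cyclins activate kinases that phosphorylate the retinoblastoma protein and free E2F factors, which switch on cyclin E and the genes of DNA replication. Licensed origins carry the MCM helicase, and replication draws on the clamp Pcna and on enzymes that make deoxynucleotides. Genes of G2 and mitosis are switched on later, often through a CCAAT box and a cell cycle homology region in their promoters. Microglia of the healthy adult brain divide slowly and renew themselves in place, and they are known to divide more where they are activated.

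Promoters are shown for 4 members, those with a window that passed the test in the most comparisons, with ties settled by the smaller p for age in WT. They come from RefSeq on GRCm38.p6, which gave windows of 300 bases, 250 before and 50 after the annotated start, for 31 of the 40 members. Ccnd1, Ccnd2, Ccne2, Mcm4, Ccna2, Aurkb, Kif20a, Tpx2 and Stmn1 had no match there. Capitals mark a CCAAT box, which reads ATTGG on the opposite strand, or a cell cycle homology region, searched as TTTGAA and likewise as TTCGAA on both strands. Kif23 lies at chr9:61946750-61947049 on the minus strand, Kif11 at chr19:37376132-37376431 on the plus strand, Cenpe at chr3:135212313-135212612 on the plus strand and Ccnd3 at chr17:47504801-47505100 on the plus strand.
Kif23: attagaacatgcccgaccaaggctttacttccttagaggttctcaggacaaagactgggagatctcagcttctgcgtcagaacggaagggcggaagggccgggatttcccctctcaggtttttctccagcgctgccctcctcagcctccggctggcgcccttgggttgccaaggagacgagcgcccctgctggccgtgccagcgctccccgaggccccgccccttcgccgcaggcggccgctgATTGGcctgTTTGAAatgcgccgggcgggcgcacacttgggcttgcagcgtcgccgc
Kif11: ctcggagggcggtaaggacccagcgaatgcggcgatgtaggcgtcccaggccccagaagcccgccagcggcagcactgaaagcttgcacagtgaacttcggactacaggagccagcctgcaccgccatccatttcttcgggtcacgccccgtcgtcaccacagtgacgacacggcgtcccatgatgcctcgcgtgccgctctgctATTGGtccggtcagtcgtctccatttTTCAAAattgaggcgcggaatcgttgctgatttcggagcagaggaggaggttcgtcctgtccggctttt
Cenpe: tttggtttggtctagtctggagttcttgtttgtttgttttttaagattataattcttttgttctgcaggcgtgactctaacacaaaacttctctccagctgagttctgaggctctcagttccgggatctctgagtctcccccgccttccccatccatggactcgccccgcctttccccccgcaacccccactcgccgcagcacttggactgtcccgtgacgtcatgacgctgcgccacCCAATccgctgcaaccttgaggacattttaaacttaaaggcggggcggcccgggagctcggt
Ccnd3: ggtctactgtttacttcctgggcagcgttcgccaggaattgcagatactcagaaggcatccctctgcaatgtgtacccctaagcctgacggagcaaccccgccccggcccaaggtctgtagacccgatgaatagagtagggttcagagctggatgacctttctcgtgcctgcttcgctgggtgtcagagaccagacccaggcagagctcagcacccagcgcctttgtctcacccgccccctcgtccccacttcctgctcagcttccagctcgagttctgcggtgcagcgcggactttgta
In the Kif23 window the CCAAT box begins 7 bases before the start and the homology region 2 bases after it. In that of Kif11 they begin 45 and 19 bases before the start. The Cenpe window has a CCAAT box 12 bases before the start and no homology region of these letters. The Ccnd3 window printed, 1 of 2 for that gene, has none of the searched letters.

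Over all 31 members with a window, 26 had a CCAAT box on either strand, against 41.06% of the 27025 genes of the promoter table. A cell cycle homology region was found for 17 of 31 members and 21.66% of all genes, and both motifs together for 17 of 31 members and 8.614% of all genes. The motifs differed between the roles. Of the 19 members of G2 and mitosis with a window, 15 had a homology region and 3 had an E2F motif, searched on both strands as TTCCCGC and likewise as TTGGCGC, further as TTCGCGC and finally as TTGCCGC. The letters of these motifs can overlap. Of the 10 replication members, 2 had a homology region (Mcm2 and Mcm7) and 7 an E2F motif, which 10.86% of all genes had. These matches are descriptions of the letters in these windows.

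Depth, as reads assigned to genes, was 8600878 to 19411434 per library for aging and 9264999 to 18698707 for 5XFAD. A level below is a normalized count, the authors' count divided by the library's size factor, and 3 reads equal 2.06 to 4.51 normalized counts. A change is the difference of mean log2(normalized count + 1) between 2 groups, with its standard error, tested with limma and called at a Benjamini-Hochberg adjusted p under 0.05 over all genes tested. The scale understates the change of low genes. All 40 members passed the minimum mean of 10 normalized counts in both tables. Trem1 was checked first. Its levels were 25.2, 7.65 and 8.74 in young WT, 89.4, 99.8 and 89.5 in young Trem1-/-, 269, 188 and 237 in aged WT and 124, 124 and 244 in aged Trem1-/- libraries. Trem1 was thus higher in the young libraries labelled Trem1-/- than in young WT (2.85 ± 0.45, adjusted p = 0.000622), against their label, and the aged groups overlapped. In the 5XFAD table it was at 62.7, 0 and 30.2 in adult WT, 13.7, 32.0 and 36.8 in 5XFAD and 25.1, 18.1 and 38.3 in 5XFAD Trem1+/-, and all 3 groups overlapped. Which exons the deletion removes was not stated, so these libraries are called labelled Trem1-/- below. Microglial markers were the leading markers in every library: the summed level of 7 (Cx3cr1, P2ry12, Tmem119, Csf1r, Siglech, Sall1, Fcrls) was 322265 to 358798 in young WT and 226670 to 254111 in the aged labelled Trem1-/- libraries, its highest and lowest groups.

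Per kilobase of exon, the members with the highest mean level in young WT were Mcm3 (364), Pcna (208) and Ccnd1 (184). The lowest were Ccne1 (2.72), Ccnb1 (2.91) and Bub1 (3.85). The proliferation marker Mki67 stood at 80.0. In the plot of all members by library, young WT is blue in most mitotic rows, while the MCM rows stay near their mean.

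**Figure D1:**
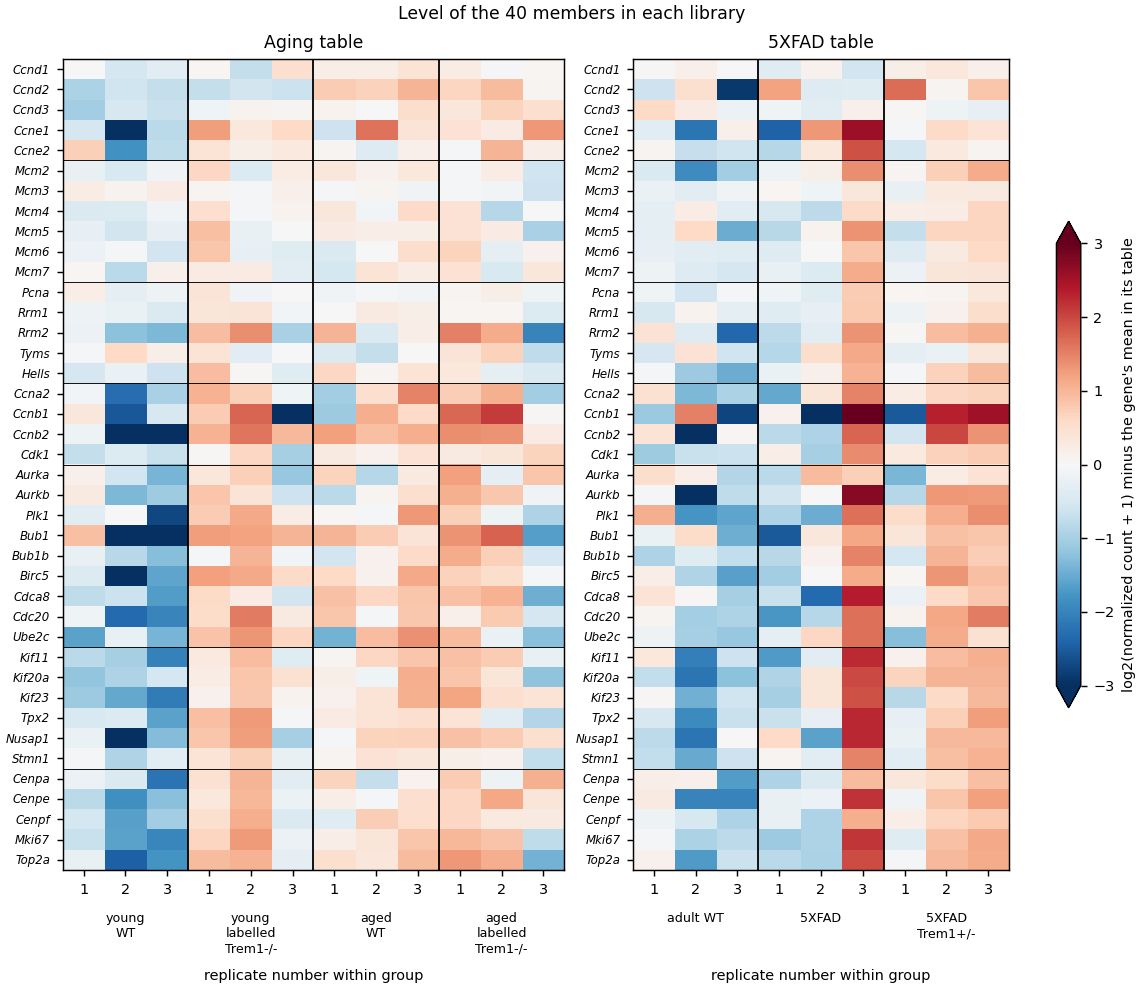
Each cell is log2(normalized count + 1) of 1 of the 40 members in 1 library minus the gene's mean over its own table, with blue below and red above the mean. Columns are the 3 replicates of each group, and horizontal lines separate the role groups in the order of the text. Young WT is low for most mitotic members, and 5XFAD replicate 3 is the reddest column of the 5XFAD table.

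Between young and aged WT, 10 of 40 members rose with age and none fell at this threshold. Over all genes tested, 1394 of 16086 were called (8.67%), and 6.43% rose. The risers were 2 D-type cyclins, 1 B-type cyclin and 7 genes of mitosis. Across the 40 members the median change was 1.13, with 38 above 0, against a median of -0.01 over all genes. The 3 young and 3 aged WT libraries did not overlap, with aged higher, for 23 of 40 members, against 15.1% of genes tested.

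Of the 5 D-type and E-type cyclins, 2 rose. Ccnd2, a D-type cyclin, was at 67.2, 86.4 and 78.6 in young WT and 221, 211 and 267 in aged WT. All 3 aged libraries lay above all 3 young ones, a change of 1.58 ± 0.32 (adjusted p = 0.00205). Ccnd3, another D-type cyclin, went from 605, 905 and 784 to 1340.0, 1269 and 1797, again without overlap, a change of 0.94 ± 0.16 (adjusted p = 0.000339). Both kept their call with each of the 6 libraries left out. Ccnd1 was at 1041, 723 and 832 in young WT and 1214, 1214 and 1403 in aged WT. These groups did not overlap either, but the change of 0.57 ± 0.23 did not pass the test (adjusted p = 0.139). The E-type cyclins that start S phase were not called: Ccne1 gave 2.31 ± 0.94 and Ccne2 0.57 ± 0.56. Reads of Ccnd3 may be shared with the pseudogene Ccnd3-ps, and the gene Bysl lies over part of its span on the other strand.

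**Figure D2:**
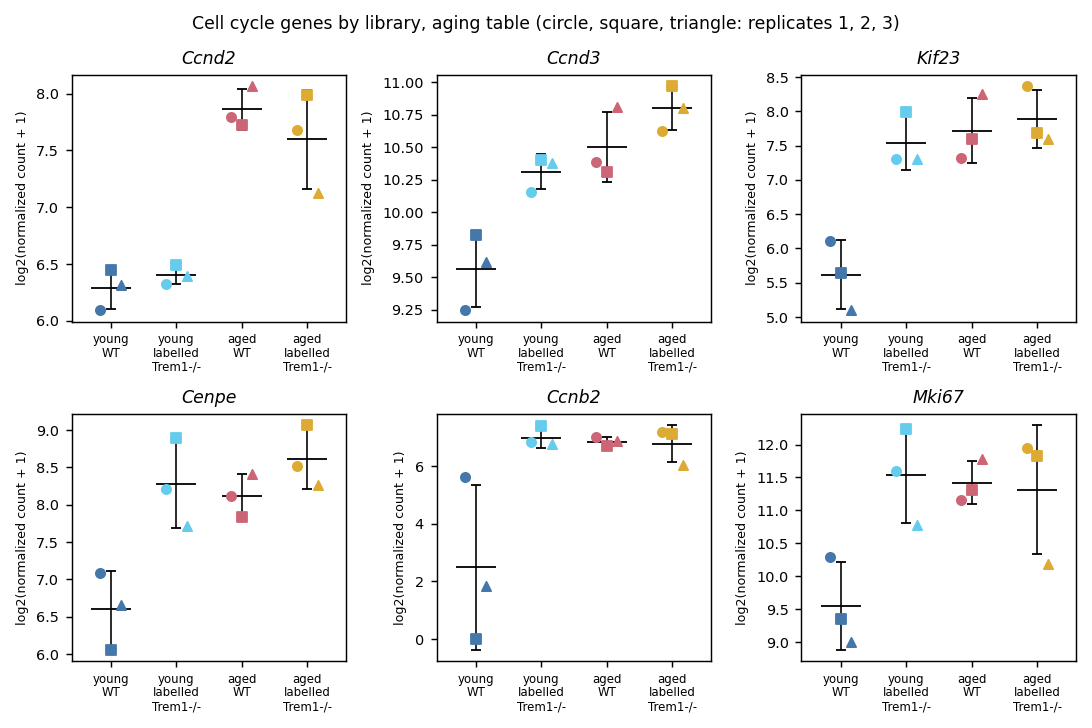
Level of 6 members in each library of the aging table as log2(normalized count + 1), by group, with the mean and SD over 3 libraries as a black bar; each panel has its own scale. Every young WT library lies below all others for Ccnd3, Kif23, Cenpe and Ccnb2, aged labelled Trem1-/- replicate 3 reaches into the young WT range for Mki67, and Ccnd2 is low in both young groups.

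None of the 6 MCM helicase genes and none of the 5 other S phase genes was called with age. The helicase changes ranged from -0.22 for Mcm3 to 0.58 for Mcm4, with a median of 0.41. Mcm3, at 1398, 1287 and 1418 in young WT and 1144, 1264 and 1112 in aged WT, was the member whose groups separated downwards (-0.22 ± 0.15, adjusted p = 0.418). Mcm2, Mcm4 and Mcm5 were above 0 without overlap, at 0.53 ± 0.29, 0.58 ± 0.27 and 0.55 ± 0.32, and did not pass the test. Of the others, Pcna, the sliding clamp of replication, gave 0.00 ± 0.18. The ribonucleotide reductase subunits Rrm1 and Rrm2 gave 0.42 ± 0.19 and 1.17 ± 0.84. Tyms, the thymidylate synthase, gave -0.63 ± 0.38, and Hells, a chromatin remodeller, 0.82 ± 0.44. Pcna and Tyms also have annotated pseudogene copies that could take part of their reads.

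Among cyclins A and B and Cdk1, only Ccnb2 was called. Ccnb2, a B-type cyclin, was at 48.5, 0 and 2.62 in young WT and at 128, 102 and 116 in aged WT. All aged libraries were higher, and young WT replicates 2 and 3 were at or under 3 reads. The change was 4.36 ± 1.04 (adjusted p = 0.0222), and its size depends on the pseudocount. Neither edgeR nor DESeq2, run on reads recovered from the normalized counts, called Ccnb2. Left out singly, young WT replicate 3 (adjusted p = 0.105), aged WT replicate 1 (adjusted p = 0.0807) and aged WT replicate 3 (adjusted p = 0.0684) each ended this call. Ccna2 (1.42 ± 0.76), Ccnb1 (1.09 ± 1.24) and the mitotic kinase Cdk1 itself (0.87 ± 0.47) did not pass the test. Cdk1 was at 37.3, 45.9 and 38.4 in young WT and 74.4, 67.2 and 83.5 in aged WT, without overlap. Ccnb1 and Ccnb2 have annotated pseudogenes.

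Of the 9 members for mitotic kinases, the spindle checkpoint, the chromosomal passenger complex and the anaphase-promoting complex, 3 rose. Birc5 (survivin) and Cdca8 (borealin) are subunits of the passenger complex, which corrects the attachment of chromosomes to the spindle. Birc5 went from 36.4, 2.19 and 15.7 in young WT to 74.4, 54.2 and 108 in aged WT, a change of 2.61 ± 0.66 (adjusted p = 0.0133). Cdca8 went from 37.3, 40.5 and 19.2 to 119, 98.7 and 115, a change of 1.81 ± 0.57 (adjusted p = 0.0467). Cdc20, an activator of the anaphase-promoting complex, went from 43.8, 8.75 and 11.4 to 85.6, 46.6 and 84.3, a change of 2.01 ± 0.61 (adjusted p = 0.0392). In all 3 the aged libraries lay above the young ones, though for Cdc20 young WT replicate 1 came close to aged WT replicate 2. Left out singly, young WT replicate 2 (adjusted p = 0.079) and aged WT replicate 3 (adjusted p = 0.0847) ended the call of Birc5. For Cdca8 the call was lost without young WT replicate 1 (adjusted p = 0.0729), young WT replicate 2 (adjusted p = 0.0732), young WT replicate 3 (adjusted p = 0.163), aged WT replicate 1 (adjusted p = 0.135), aged WT replicate 2 (adjusted p = 0.0668) and aged WT replicate 3 (adjusted p = 0.143). For Cdc20 it was lost without young WT replicate 2 (adjusted p = 0.172), young WT replicate 3 (adjusted p = 0.121), aged WT replicate 1 (adjusted p = 0.139) and aged WT replicate 3 (adjusted p = 0.152). On recovered reads edgeR did not call Cdc20, and DESeq2 did. The other 6 were not called: Aurka and Aurkb, the Aurora kinases, gave 0.64 ± 0.61 and 0.64 ± 0.58, and Plk1 1.46 ± 0.65. The checkpoint genes Bub1 and Bub1b gave 3.09 ± 1.13 and 0.82 ± 0.42. Ube2c, the ubiquitin-conjugating enzyme of the same complex as Cdc20, gave 1.36 ± 0.66. Bub1 was at 0 in young WT replicate 2, so its change rests on few reads. The Aurkb level overlapped between the groups although its passenger complex partners Birc5 and Cdca8 did not.

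Of the 6 spindle members, 2 rose. Kif23, a kinesin of the central spindle needed for cytokinesis, was at 68.1, 49.2 and 33.2 in young WT and 159, 192 and 303 in aged WT. The change was 2.10 ± 0.35 (adjusted p = 0.000339). Kif11, the kinesin that pushes spindle poles apart, was at 114, 101 and 48.9 and 213, 311 and 358, a change of 1.79 ± 0.38 (adjusted p = 0.00409). In both, every aged library was higher than every young one, and each call held with each library left out. Kif20a (1.25 ± 0.48), Tpx2 (adjusted p = 0.0514), Nusap1 (1.95 ± 0.62, adjusted p = 0.061) and Stmn1 (0.72 ± 0.28), which act on spindle microtubules, were not called. All 6 nevertheless had groups without overlap.

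At the centromere, Cenpe, a kinetochore motor, was at 135, 65.6 and 99.6 in young WT and 276, 228 and 339.7 in aged WT, a change of 1.52 ± 0.31 (adjusted p = 0.00262) that held with each library left out. Cenpf, a large kinetochore protein, was at 133 to 285 and 320.0 to 692, a change of 1.36 ± 0.39 (adjusted p = 0.047). Both were higher in every aged library. The call of Cenpf was lost without young WT replicate 2 (adjusted p = 0.18), young WT replicate 3 (adjusted p = 0.115), aged WT replicate 2 (adjusted p = 0.113) and aged WT replicate 3 (adjusted p = 0.156). Mki67, the Ki-67 protein that coats mitotic chromosomes, was at 1248, 655 and 510.1 in young WT and 2284, 2535 and 3532 in aged WT. Its aged libraries were all higher, but the change of 1.87 ± 0.58 did not pass the test (adjusted p = 0.0961). Top2a, the topoisomerase that untangles chromosomes, gave 2.08 ± 0.83, and Cenpa, the centromeric histone, 0.96 ± 0.54, neither called. Over the whole list, 6 members were called without young WT replicate 2, 6 without young WT replicate 3 and 5 without aged WT replicate 3. Over all 16086 genes these fits called 860, 1121 and 731. The fit without a variance trend and robust weights called 3 members (Ccnd2, Ccnd3 and Kif23) and 581 genes. On recovered reads edgeR called 8 members and 1294 genes, without Ccnb2 and Cdc20. DESeq2 called 12 members and 1767 of 16075 genes, without Ccnb2 but with Mki67, Nusap1 and Tpx2.

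**Figure D3:**
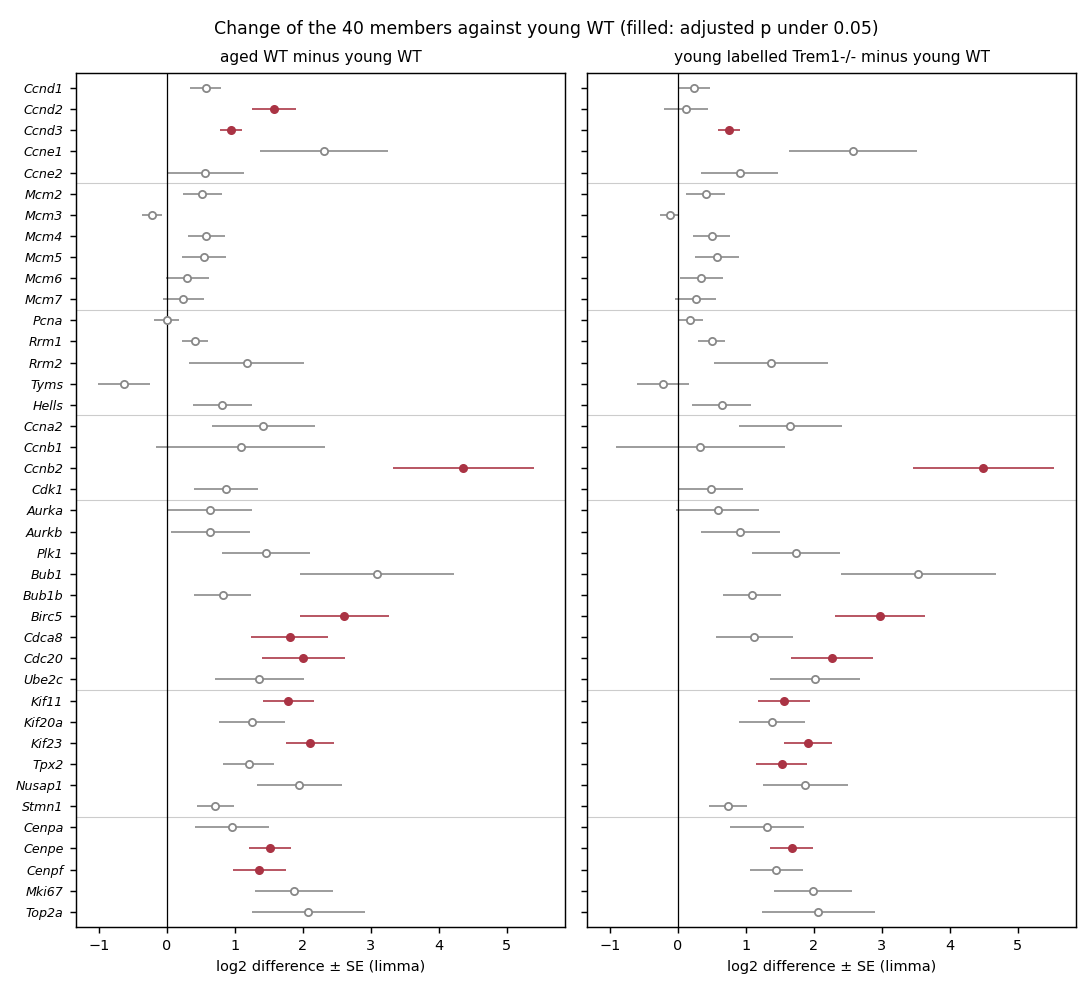
Change of each of the 40 members against young WT as a log2 difference with its standard error from limma, left for aged WT and right for the young libraries labelled Trem1-/-; filled red points passed an adjusted p under 0.05. Lines separate role groups. No MCM or other S phase gene is filled in either panel, and all spindle and centromere genes lie to the right of 0.

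Against the same young WT libraries, the young libraries labelled Trem1-/- had 8 of 40 members higher and none lower at this threshold. Over all genes 415 of 16086 were called (2.58%), and 2.36% were higher. The median change of the members was 1.10, with 38 above 0. Groups did not overlap, with the labelled Trem1-/- libraries higher, for 20 of 40 members, against 11.3% of genes tested. The 8 were Ccnd3, Ccnb2, Birc5, Cdc20, Kif11, Kif23, Tpx2 and Cenpe. Of these, 7 were also called with age in WT, Tpx2 was not, and Ccnd2, Cdca8 and Cenpf were called with age only. Both comparisons share their 3 young WT libraries, so the overlap is not independent. The difference between the lists was not tested.

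Kif23 was at 157, 253 and 157 in the young labelled Trem1-/- libraries, a change of 1.91 ± 0.35 (adjusted p = 0.00234) from young WT. Cenpe was at 295, 475 and 209.6, a change of 1.67 ± 0.31 (adjusted p = 0.00287). For both, all 3 libraries were above all 3 of young WT, and the calls held with each library left out. Kif11 was at 247, 385 and 155, a change of 1.56 ± 0.38 (adjusted p = 0.0262). Tpx2, a spindle assembly factor that activates Aurora A, was at 132, 138 and 59.4 in young WT and 341, 442 and 175 here, a change of 1.52 ± 0.38 (adjusted p = 0.0295). These groups did not overlap either, and replicate 3 was the lowest of the labelled Trem1-/- libraries for both. The call of Kif11 was lost without young WT replicate 2 (adjusted p = 0.0613), young WT replicate 3 (adjusted p = 0.143), young labelled Trem1-/- replicate 1 (adjusted p = 0.0694) and young labelled Trem1-/- replicate 2 (adjusted p = 0.171). That of Tpx2 was lost without young WT replicate 3 (adjusted p = 0.176), young labelled Trem1-/- replicate 1 (adjusted p = 0.104) and young labelled Trem1-/- replicate 2 (adjusted p = 0.195).

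Ccnd3 was at 1140.4, 1349 and 1326 in the young labelled Trem1-/- libraries, a change of 0.75 ± 0.16 (adjusted p = 0.00755). Ccnd2 was at 79.1, 89.1 and 83.2, close to its young WT levels, a change of 0.12 ± 0.32 (adjusted p = 0.948). So of the D-type cyclins Ccnd3 separated from young WT and Ccnd2 did not. Ccnb2 was at 112, 166 and 107 (4.49 ± 1.04, adjusted p = 0.0424), Birc5 at 117, 108 and 73.7 (2.97 ± 0.66, adjusted p = 0.0117) and Cdc20 at 69.8, 143 and 57.9 (2.27 ± 0.61, adjusted p = 0.0431). All 3 lay above every young WT library. On recovered reads edgeR called neither Ccnb2 nor Cdc20, and DESeq2 called Cdc20 but not Ccnb2. Leaving out 1 library ended the call of Ccnd3 for young WT replicate 1 (adjusted p = 0.0573), young labelled Trem1-/- replicate 2 (adjusted p = 0.0545) and young labelled Trem1-/- replicate 3 (adjusted p = 0.0511). It ended that of Birc5 for young WT replicate 2 (adjusted p = 0.0628), young labelled Trem1-/- replicate 1 (adjusted p = 0.0507) and young labelled Trem1-/- replicate 2 (adjusted p = 0.0682). For Ccnb2 the libraries were young WT replicate 2 (adjusted p = 0.057), young WT replicate 3 (adjusted p = 0.206), young labelled Trem1-/- replicate 1 (adjusted p = 0.0922), young labelled Trem1-/- replicate 2 (adjusted p = 0.135) and young labelled Trem1-/- replicate 3 (adjusted p = 0.117), and for Cdc20 young WT replicate 2 (adjusted p = 0.221), young WT replicate 3 (adjusted p = 0.163), young labelled Trem1-/- replicate 1 (adjusted p = 0.0825), young labelled Trem1-/- replicate 2 (adjusted p = 0.271) and young labelled Trem1-/- replicate 3 (adjusted p = 0.0787). None of the 6 MCM genes or 5 other S phase genes was called, with changes from -0.22 for Tyms to 1.37 for Rrm2. Mki67, at 3096, 4805 and 1754, gave 1.99 ± 0.58 (adjusted p = 0.165). Over the list, 4 members were called without young WT replicate 2, 4 without young WT replicate 3, 3 without young labelled Trem1-/- replicate 1 and 2 without replicate 2. Over all 16086 genes these fits called 234, 259, 366 and 223. The fit without a variance trend and robust weights called no member and 97 genes. In the fit reported, 21 of 40 members and 1900 of 16086 genes had an unadjusted p under 0.05. On recovered reads edgeR called 6 members and 386 genes, and DESeq2 11 members and 648 of 16075 genes.

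Between the aged groups, no member differed between labelled Trem1-/- and WT in limma (0 of 16086 genes, 0%). No member had an unadjusted p under 0.05 there, edgeR also called none, and DESeq2, which gave an adjusted p for 5 of the members, called none of those. The median change was -0.06, with 17 of 40 above 0. Kif23 was at 330.5, 205 and 193 in the aged labelled Trem1-/- libraries, a change of 0.17 ± 0.35 from aged WT. Cenpe was at 366, 535 and 307 (0.50 ± 0.31), and Ccnd3 at 1579.7, 2004 and 1787 (0.30 ± 0.16). These ranges overlapped those of aged WT. Mki67, at 3930.5, 3617 and 1163, showed the spread within the group, with replicate 3 far under the other 2. That library was the lowest of its group for 30 of 40 members. The intervals do not show that the groups were alike, since the standard errors of the members ran from 0.15 to 1.24.

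With age in the labelled Trem1-/- libraries, no member was called (275 of 16086 genes, 1.71%), and the median change was -0.06. Unadjusted, 4 of 40 members and 2440 of 16086 genes had p under 0.05. Ccnd2 came nearest, from 79.1, 89.1 and 83.2 in the young to 204, 253 and 138 in the aged libraries (1.19 ± 0.32, adjusted p = 0.0549), with no overlap. edgeR and DESeq2 on recovered reads each called 1 member, Ccnd2, and so did limma without aged labelled Trem1-/- replicate 3. Over all genes these fits called 207 of 16086, 606 of 16075 and 182 of 16086. Ccnd3 (0.49 ± 0.16, adjusted p = 0.118) was also higher without overlap, and Mcm3 (-0.31 ± 0.15, adjusted p = 0.313) lower without overlap. The mitotic members gave values on both sides of 0, from -1.11 for Ube2c to 1.86 for Ccnb1. Ccnb1 was at 0 in young labelled Trem1-/- replicate 3.

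The interaction compares the age change of the labelled Trem1-/- libraries with that of WT, and it was below 0 for 38 of 40 members, with a median of -1.15. Over all genes 408 of 16086 were called (2.54%). Among members 1 of 40 was called (2.5%), near that share. It was Tpx2, at -2.18 ± 0.54 (adjusted p = 0.031). Tpx2 was at 216, 241 and 259 in aged WT and 242, 143 and 99.3 in the aged labelled Trem1-/- libraries, against the young values given above. Its change with age was above 0 in WT and -0.97 in the labelled Trem1-/- libraries, where the groups overlapped and the change was not called (adjusted p = 0.21). Its interaction was lost without young WT replicate 3 (adjusted p = 0.0742), young labelled Trem1-/- replicate 1 (adjusted p = 0.0667), young labelled Trem1-/- replicate 2 (adjusted p = 0.0968), aged WT replicate 1 (adjusted p = 0.0589), aged WT replicate 3 (adjusted p = 0.0924), aged labelled Trem1-/- replicate 2 (adjusted p = 0.0892) and aged labelled Trem1-/- replicate 3 (adjusted p = 0.0839). Without young WT replicate 1 the interaction called 6 of 40 members and 398 of 16086 genes. Without aged WT replicate 2 it called 2 members and 790 genes. Without aged labelled Trem1-/- replicate 1 it called 2 members and 533 genes. DESeq2 on recovered reads called 4 members (Birc5, Cenpf, Kif23 and Tpx2) and 768 of 16075 genes. Kif23 gave -1.75 ± 0.50 (adjusted p = 0.0612) and Birc5 -3.20 ± 0.93 (adjusted p = 0.0685) in limma. For Ccnd2 the interaction was -0.38 ± 0.45 (adjusted p = 0.749).

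Other genes of the cell cycle, 104 tested from a list of G1, replication, checkpoint and mitosis genes, were counted in the same fits. With age in WT, 14 of 104 rose (13.5%) and none fell at this threshold, against 6.43% of all genes that rose. The largest rises were Gtse1 (3.67 ± 0.84), E2f7 (2.72 ± 0.80), Mcm10 (2.55 ± 0.75) and Kif2c (2.42 ± 0.61). Gtse1 binds microtubules in G2, E2f7 is a repressor of the E2F family, Mcm10 acts at the start of replication and Kif2c is a kinetochore depolymerase. In the young labelled Trem1-/- libraries 11 of 104 were higher (10.6%) and none lower against young WT, where 2.36% of all genes were higher. They were led by E2f7 (3.46 ± 0.80), Mcm10 (2.81 ± 0.75), Anln (2.20 ± 0.45) and Prc1 (2.20 ± 0.43). Anln and Prc1 act in cytokinesis and at the spindle midzone. With age in the labelled Trem1-/- libraries 1 of 104 was called (0.96%), against 1.71% of all genes. It was the CDK inhibitor Cdkn1c, which rose by 1.90 ± 0.30 (adjusted p = 0.00142). E2f7 rested on a young WT mean of 7.75 and Mcm10 on one of 9.04. With 1 library left out at a time, the age calls held in 5 of 6 fits for Gtse1, 3 for Kif2c, 2 for E2f7 and 1 for Mcm10. Those of the young comparison held in 6 for Anln, 5 for Prc1, 2 for E2f7 and 1 for Mcm10.

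Markers of other myeloid cells were also lowest in young WT in the aging table. The summed level of 8 monocyte markers was 1450 to 2658 in young WT, 10702 to 20016 in the young labelled Trem1-/-, 10035 to 20660 in the aged WT and 11497 to 14041 in the aged labelled Trem1-/- libraries. All 8 rose with age in WT, and 6 of 8 were higher in young labelled Trem1-/- than in young WT. Neutrophil and myeloid precursor markers, 10 genes of a lineage that divides in bone marrow, summed to 4535 to 9992 in young WT, 13272 to 41976 in young labelled Trem1-/-, 29175 to 84034 in aged WT and 31663 to 91033 in aged labelled Trem1-/- libraries. Of these, 7 of 10 rose with age in WT and 1 of 10 was higher in young labelled Trem1-/- libraries. Mature neutrophil markers, 8 genes, summed to 12231 to 15259 in young WT and 21957 to 29407.5 in young labelled Trem1-/- libraries. They summed to 33387 to 57076 in aged WT and 32351 to 57358 in aged labelled Trem1-/- libraries. Of these 8, 7 rose with age in WT and 4 were higher in young labelled Trem1-/- than in young WT. The granule proteases Elane, Mpo, Prtn3 and Ctsg with Ms4a3, which mark the precursors, summed to 85.8, 0 and 6.11 in young WT and to 214 or more in every other library of that table. Their highest sum was 1940, in aged labelled Trem1-/- replicate 1, where all 10 precursor markers summed to 91033. By the interaction term 5 of 8 monocyte, 2 of 8 mature neutrophil and 1 of 10 precursor markers were called, all below 0. Of 7 border macrophage markers 1 was called below 0, and 0 of 7 microglial markers were called. Over all genes 2.54% were called. With age in WT, microglial markers went the other way, with 6 of 7 lower in aged than in young WT. In young labelled Trem1-/- against young WT 1 of 7 was lower, with a median change of -0.16. Choroid plexus and ependyma markers, 6 genes, summed to 6038 to 14979.5 in young WT, 2418 to 14859 in young labelled Trem1-/-, 27045 to 44837 in aged WT and 30961 to 40928 in aged labelled Trem1-/- libraries, and 2 of the 5 tested rose with age in WT. Member level here is the median over members relative to each gene's table mean. The young WT libraries thus had the lowest of these myeloid sums and the lowest member levels of the table. Within groups the marker lists differed. Young labelled Trem1-/- replicate 3 and aged WT replicate 1 had the lowest member level of their groups. They had the highest monocyte sums there (20016 and 20660) but the lowest precursor sums (13272 and 29175). In young WT and aged labelled Trem1-/-, replicate 3 was lowest in member level and in both sums. The part of these cells in the member changes was not tested. In RNA of bulk samples, fewer cells of a type and less RNA per cell cannot be told apart.

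In the 5XFAD table no member was called between 5XFAD and adult WT in limma, where 337 of 17025 genes were (1.98%). At an unadjusted p under 0.05 there were 4 of 40 members and 2573 of 17025 genes. On recovered reads edgeR called no member and 209 genes. DESeq2 called 3 members (Kif20a, Mcm2 and Stmn1) and 783 of 16969 genes. The median change was 0.79, with 36 of 40 above 0, but 1 library set it. 5XFAD replicate 3 was the highest of its group for 37 of 40 members and the highest of the whole table for 33. Mki67 was at 1582, 859 and 949.8 in adult WT and 769.6, 872 and 7312 in 5XFAD. Top2a was at 563, 159 and 327 and 294, 265 and 1989.7, and Tpx2 at 125, 45.7 and 111 and 109, 148 and 847. In each, 5XFAD replicates 1 and 2 lay within or near the adult WT range and replicate 3 far above it. Without that library the median change fell to 0.08, with 25 of 40 above 0 and none called, and Mki67 went from 0.64 ± 0.95 to -0.41 ± 0.49.

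**Figure D4:**
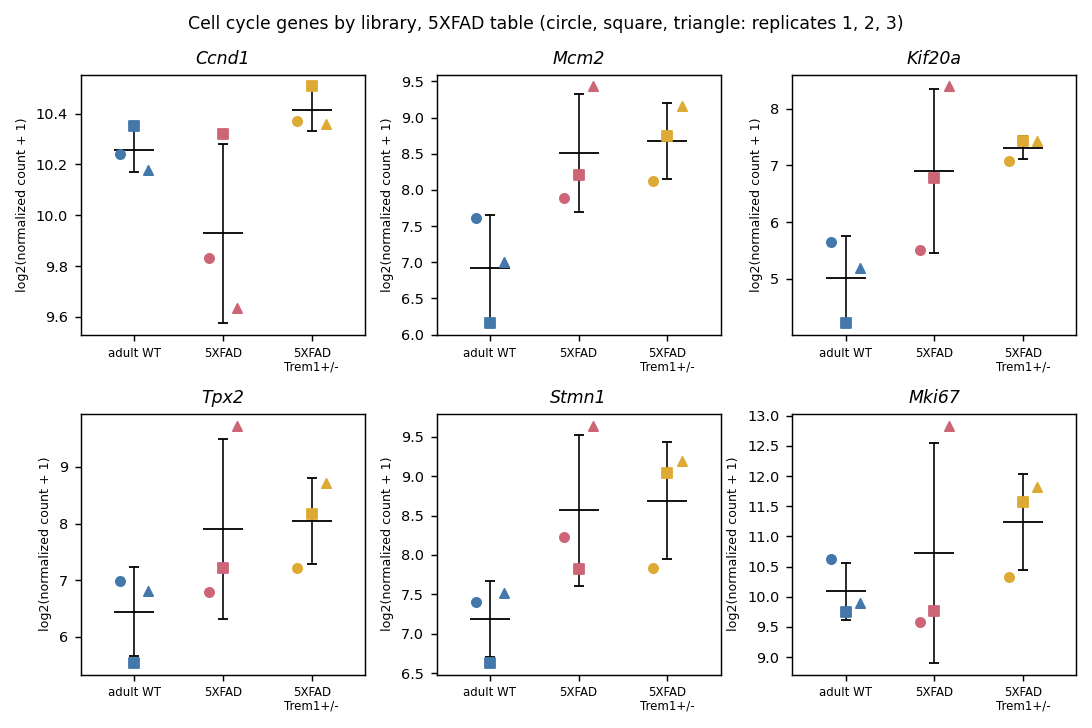
Level of 6 members in each library of the 5XFAD table as log2(normalized count + 1), by group, with the mean and SD over 3 libraries as a black bar; each panel has its own scale. 5XFAD replicate 3 (triangle) is the highest library of the table for all but Ccnd1, for which it is the lowest.

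The members did not all follow that library. Ccnd1 was at 1209, 1304 and 1158 in adult WT and 909, 1278 and 793 in 5XFAD, and replicate 3 was the lowest of the table. Ccnd2, Ccnd3, Mcm4, Ccnb2, Aurka and Birc5 also had their highest level of the table in another library. Ccne1, at 1.82, 36.3 and 89.1, and Ccne2, at 29.2, 66.9 and 203, were highest in it. So the E-type cyclins peaked in that library, as most mitotic members did, and the D-type cyclins did not. The MCM genes other than Mcm4 peaked in it too, with Mcm7 at 427, 371 and 1064 and Mcm6 at 375, 486 and 872. Only 2 of 40 members, Mcm2 and Stmn1, had all 3 5XFAD libraries above all 3 adult WT libraries, a share below the 9.32% of genes tested. Mcm2 was at 195, 70.3 and 127 in adult WT and 236, 295 and 689 in 5XFAD (1.59 ± 0.44, adjusted p = 0.0859). Stmn1, a protein that destabilizes microtubules and is also expressed in neurons, was at 168, 98.4 and 182 and 300.0, 225 and 796 (1.38 ± 0.48, adjusted p = 0.196).

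5XFAD replicate 3 did not have the most precursor markers. Their sum there was 9794, against 6966 and 8309 in the other 5XFAD libraries and 28079 in adult WT replicate 1, and Elane, Mpo, Prtn3, Ctsg and Ms4a3 summed to 83.3, against 549 in adult WT replicate 1. Its monocyte sum of 6120 was the highest of the table, and adult WT replicate 1 followed with 5311. Its microglial marker sum, 233635, was the lowest of the table. Its neuron and neuroblast sum of 513 was also the highest, against 84.7 to 176 in the other libraries. The part of these cells in its member levels was not tested.

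**Figure D5:**
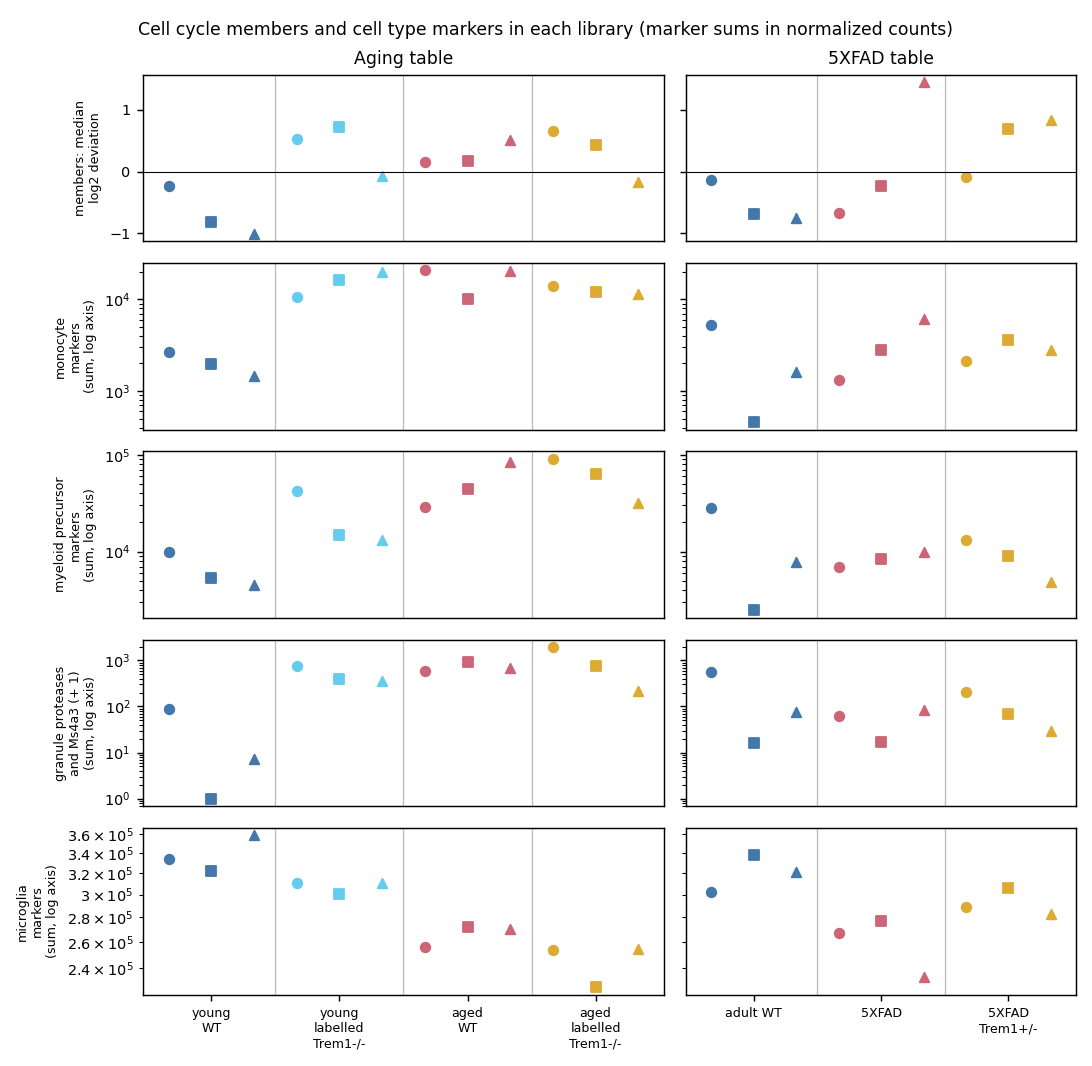
Top row: the median over the 40 members of log2(normalized count + 1) minus each gene's table mean, by library. Lower rows: summed normalized counts of marker lists on a log axis, with symbols for replicates 1 (circle), 2 (square) and 3 (triangle) of each group. In the aging table young WT is lowest for members, monocyte and precursor markers, and in the 5XFAD table replicate 3 of 5XFAD is highest for members but not for precursor markers.

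In 5XFAD Trem1+/- against adult WT, 1 of 40 members was called, Mcm2, which is near the share over all genes. There 473 of 17025 genes were called (2.78%) and 2.04% were higher. Mcm2, a subunit of the replicative helicase, was at 278, 428 and 570.3 in 5XFAD Trem1+/-, a change of 1.75 ± 0.44 (adjusted p = 0.0472), with no overlap with adult WT. Its call was lost without adult WT replicate 2 (adjusted p = 0.194), adult WT replicate 3 (adjusted p = 0.107), 5XFAD Trem1+/- replicate 2 (adjusted p = 0.131) and 5XFAD Trem1+/- replicate 3 (adjusted p = 0.212). Kif20a, a kinesin of late mitosis, was next, at 49.5, 17.6 and 35.4 in adult WT and 134, 171 and 171 in 5XFAD Trem1+/- (2.29 ± 0.61, adjusted p = 0.0524), also without overlap. The median change was 1.11, with 38 of 40 above 0. Groups did not overlap, with 5XFAD Trem1+/- higher, for 11 of 40 members, against 12.9% of genes tested: Ccnd1, Mcm2, Pcna, Hells, Cdk1, Cdc20, Kif20a, Tpx2, Stmn1, Cenpa and Cenpf. Replicate 1 was the lowest of the 5XFAD Trem1+/- libraries for 37 members. It had the highest choroid plexus and ependyma sum of the table, 103245, followed by 5XFAD replicate 1 with 81767. That sum was 2271 to 6568 in adult WT and 14962 to 30797 in the other 5XFAD and 5XFAD Trem1+/- libraries. The list's median change against adult WT was 3.03 in 5XFAD and 3.34 in 5XFAD Trem1+/-, with none of the 5 tested called, and its part in the member levels was not tested. Mki67 was at 1281, 3039 and 3594 there (1.15 ± 0.95, adjusted p = 0.633), with replicate 1 inside the adult WT range. Since all groups share the estimate of spread, 5XFAD replicate 3 also bears on this comparison. Without it limma called 4 members and 547 genes, with Mcm2 at an adjusted p of 0.0153, Kif20a at 0.0275, Stmn1 at 0.032 and Cenpf at 0.0331. Without 5XFAD Trem1+/- replicate 1 limma called 2 members and 386 genes. On recovered reads edgeR called 0 members and 373 genes. At an unadjusted p under 0.05 edgeR had 7 of 40 members and 2597 of 17025 genes.

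Between 5XFAD Trem1+/- and 5XFAD no member was called in limma (0 of 17025 genes, 0%), nor by edgeR or DESeq2 on recovered reads. The 1 member with an unadjusted p under 0.05 was Ccnd1, at 1324, 1454 and 1312 in 5XFAD Trem1+/-, above all 3 5XFAD libraries (0.48 ± 0.17, adjusted p = 0.863). The median change was 0.19, with 31 of 40 above 0. Without 5XFAD replicate 3 it was 0.86, with 38 of 40 above 0 and none called. Mki67 gave 0.50 ± 0.95 with all libraries and 1.56 ± 0.49 without that one (adjusted p = 0.733). None of the 106 other cell cycle genes tested was called in any of the 3 comparisons of this table by limma. At an unadjusted p under 0.05 there were 9 for 5XFAD against adult WT. There were 3 for 5XFAD Trem1+/- against 5XFAD and 7 for 5XFAD Trem1+/- against adult WT. Over all 17025 genes there were 2573, 883 and 2707 in that order, a larger share in each. Oligodendrocyte precursor markers, of cells that also divide in the adult brain, summed to 15.2 to 79.2 in adult WT, 96.0 to 285 in 5XFAD and 224 to 297 in 5XFAD Trem1+/- libraries. Of these 6 markers, Olig2 and C1ql1 were at 0 in all 3 5XFAD libraries. In 5XFAD against adult WT 4 of the 6 were tested and 1 was called higher, and the same counts held for 5XFAD Trem1+/-. Of 6 neural stem cell and astrocyte markers, 5 were tested against adult WT. In 5XFAD 2 were called higher (median change 2.77), and in 5XFAD Trem1+/- 1 was (median change 1.94). Their sums overlapped, at 2913 to 3389 in adult WT, 2769 to 4292 in 5XFAD and 3256 to 3308 in 5XFAD Trem1+/- libraries. The part of these cells in the member levels was not tested.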

How the data were processed

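The members and gene lists were chosen with earlier results of these data known. Per the submitters' processing notes, reads were trimmed with fastp, aligned to GRCm38 with HISAT2 2.0.5, counted per gene with featureCounts 1.5.0-p3 and analysed with DESeq2 1.20.0. The annotation release and strandedness are not given in the sources used here. Without strand, reads of the 16 members that overlap a gene on the other strand cannot be assigned with certainty. Per the labels, the kits were RNeasy mini plus for RNA and NEBNext Ultra for libraries.

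The deposited per-library columns hold a signal, the authors' counts divided by size factors, normalized separately in each table, so no test crosses the tables. Dividing by the value of 1 read gave a whole number, to within 0.05 read, in at least 99.9995% of the values above 0. The authors' fold changes and p-values were not used. The test was limma 3.58.1 under R 4.3.3, with a variance trend and robust weights, on log2 of the normalized count plus a pseudocount of 1. All groups of a table entered 1 fit, and genes whose mean normalized count reached 10 were kept (16086 and 17025). An exact permutation test of 3 against 3 cannot go below 0.1. Alternatives were a replicate block, each library left out, pseudocounts of 0.5 and 5, no filter, TMM scaling, only the compared groups, limma without trend and robust, and edgeR 4.0.16 and DESeq2 1.42.0 on the recovered reads. Named genes were all members, Trem1, and up to 4 other cell cycle genes a direction with the largest change among those called. 1 marker of the microglial list is not reported here and was left out of its sums and counts. Floors of 3 reads cover counting error only. Lengths and positions come from GENCODE M21. The fit was tested on simulated data. Replicates of a group differed by a chi-square per degree of freedom of 12.5 to 46.9, so none was a duplicate.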

Additional observations from a re-analysis of the deposited data

Results flagged for a closer look

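The age change differed between the libraries labelled Trem1-/- and WT, by the interaction term of limma, for Tpx2 among the members (-2.18, adjusted p = 0.031) and for 3 other cell cycle genes. These were 1 of 40 members (2.5%) and 3 of 104 other genes (2.88%), near the 2.54% called over all genes. Prc1, which bundles microtubules at the spindle midzone, gave -2.355 (adjusted p = 0.0351), E2f2, a transcription factor of the G1 to S step, -2.01 (adjusted p = 0.0177), and Lmnb1, a lamin of the nuclear envelope, -1.66 (adjusted p = 0.0144). All 4 values are below 0. Prc1 was at 56.0, 30.6 and 31.4 in young WT, 178, 286 and 109.6 in young labelled Trem1-/-, 144, 179 and 211 in aged WT and 217, 233 and 78.2 in aged labelled Trem1-/- libraries. Lmnb1 was at 764, 473 and 543, 1379, 1359.8 and 1326, 1867, 1177 and 1708 and 1670.2, 1053 and 856 in the same order, and E2f2 at 183, 134 and 65.5, 431, 272 and 397, 574, 398 and 468 and 468, 385 and 257. For all 3 the young WT libraries were the lowest of the 4 groups. With 1 of the 12 libraries left out at a time, the call held in 11 of 12 fits for Lmnb1, 7 for E2f2, 5 for Prc1 and 5 for Tpx2.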

How the results depend on the processing

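The number of members called with age in WT, 10 in the fit reported, was 3 without trend and robust and 5 to 11 with 1 library left out. In young labelled Trem1-/- against young WT it was 8, and 0 without trend and robust and 2 to 10 with 1 left out. For the interaction it was 1, and 2 with a replicate block, 3 with a pseudocount of 5, 0 without trend and robust, 4 with DESeq2 and 0 to 6 with 1 library left out. With age in the labelled Trem1-/- libraries it was 0, and 1 with a pseudocount of 5, with edgeR and with DESeq2, and 0 to 1 with 1 left out. For 5XFAD against adult WT it was 0, and 2 with the block, 5 with no filter, 3 with DESeq2 and 0 to 1 with 1 left out. For 5XFAD Trem1+/- against adult WT it was 1, and 3 with the block, 0 with a pseudocount of 0.5, 2 with one of 5, 7 with no filter, 0 without trend and robust, 4 with only the compared groups, 0 with edgeR, 3 with DESeq2, 0 to 2 with 1 library of either group left out and 4 without 5XFAD replicate 3, chosen after seeing the data. It was 0 under every alternative run for the other 2 comparisons. Calls over all genes moved with the settings too. Without trend and robust they went from 1394 to 581 with age in WT and from 415 to 97 in the young comparison. With 1 library left out they ran from 731 to 1612 with age in WT. For 5XFAD against adult WT they went from 337 of 17025 to 795 of 36997 with no filter. For 5XFAD Trem1+/- against adult WT they went from 473 to 547 without 5XFAD replicate 3. They were 448 with a pseudocount of 0.5, 528 with one of 5, 952 of 36997 with no filter and 706 with only the compared groups. With edgeR they were 373 and with DESeq2 1061 of 16969. For the interaction they went from 408 to 557 with a replicate block and 466 with a pseudocount of 5. With 1 library left out the interaction calls ran from 197 to 790. The cause of these shifts was not tested.

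No called member reversed in 306 values under alternatives: 216 kept their call and 90 did not, of which 17 were lost without trend and robust. The labels do not say what a replicate number shares. Same-numbered libraries had residual correlations of a median 0.0119 in the aging table (from -0.136 to 0.0988) and 0.0116 in the 5XFAD table (from -0.0328 to 0.203). The 3 pairs of 5XFAD with 5XFAD Trem1+/- were all above 0, at 0.203, 0.0594 and 0.0788, and each of these libraries correlated best with its own number in the other group. Not all pairs reached 0.1, so the numbers were not taken as pairs. With a replicate block 11 members were called with age in WT, where Cenpf lost its call (adjusted p = 0.0912), and 8 in the young comparison. Over all genes the block moved the calls from 337 to 628 for 5XFAD and from 473 to 848 for 5XFAD Trem1+/-, both against adult WT. DESeq2 gave an adjusted p for 5 members between the aged groups.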
